A study of Mus musculus with 12 samples.

Results

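Pomk encodes protein O-mannose kinase and is listed in the deposited table under an older RIKEN clone symbol (ID.4930444A02RIK). Every hairpin carrying that symbol was taken, which gave 5 hairpins (numbered 2642, 2654, 2669, 2678 and 2696 in the table) of 3243 in all. The gene was chosen from measured values, namely its number of hairpins that passed the call for enrichment when the GFP+ cells of 2i culture were set against the GFP- cells, so for Pomk that contrast is given as a description, with calls and fold changes but no p. The symbol was matched to Pomk through RefSeq gene names, and the hairpin sequences were not used here.

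Pomk is a kinase of the secretory pathway. It phosphorylates the mannose at the base of an O-linked sugar chain on alpha-dystroglycan, a cell surface receptor, and later enzymes then extend that chain into the polymer that binds laminin in the extracellular matrix. Loss of this step causes forms of muscular dystrophy with brain and eye involvement, grouped as dystroglycanopathies. UHRF1, whose level the screen read, recognises hemimethylated DNA and brings the maintenance methyltransferase DNMT1 to it.

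The screen used E14 mouse embryonic stem cells carrying a UHRF1-GFP transgene, so that GFP fluorescence stood in for UHRF1 protein. All groups came from cells transduced in serum/LIF with a pooled lentiviral shRNA library against mouse kinases (TRC) and selected in puromycin. The 4 groups were Serum/LIF day 0 (unsorted, at the split of the culture), Serum/LIF day 7 (unsorted, kept in serum with LIF), and GFP+ and GFP- cells sorted after 7 days in 2i, which is serum-free N2B27 medium with LIF, the MEK inhibitor PD0325901 at 1 µM and the GSK3 inhibitor CHIR99021 at 3 µM. Each group held 3 libraries, labelled A, B and C, in which hairpins were amplified from genomic DNA and counted. The study describes culture in triplicate after transduction and calls the replicates biological. The titles call the libraries "combined" without saying what was combined, and the labels do not say whether the letters mark separate infections. A p-value here reflects only how these libraries varied, which may be technical in part. The GFP signal reports the transgene and not endogenous UHRF1, and no measurement of Pomk knockdown by these hairpins was analysed here.

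Library totals ran from 2435551 to 5466825 counts, the lowest being 2i GFP+ replicate B. The GFP+ libraries stood apart from the rest. Only 40.2% of all hairpins had a count in each of the 3 GFP+ libraries. All 5 Pomk hairpins did, but Pomk was chosen for enrichment in these libraries, so nothing is read from that. The trimmed mean of M values (TMM) scaling factors were 0.63 to 0.71 in GFP+ libraries and 1.08 to 1.21 in the other 9. Levels below are therefore CPM, the count scaled to a common library size, after TMM scaling, and the value by plain total counts is given where it changes a statement. Counts are PCR reads without molecular identifiers, so a high count is not as many independent cells.

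Most Pomk hairpins were well represented at the start. Hairpin 2696 was less so, lying above 70.6% of all hairpins in day 0 replicate A but above 49.8% and 50.1% in B and C. At day 0 its 5 hairpins lay above 59.4% (hairpin 2696) to 82.6% (hairpin 2642) of all hairpins by mean share of counts, and across all 12 libraries no Pomk hairpin fell under 331 counts or rose over 5910.

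In 2i GFP+ against 2i GFP- cells, 4 of the 5 Pomk hairpins were called enriched, beside 8.58% of the 2600 hairpins tested. A call needed both an adjusted p under 0.05 in edgeR's quasi-likelihood test and a change of more than 1 log2 unit in either direction. These are the values by which Pomk was chosen, so nothing is read from the count. The log2 fold changes were 2.75 (SE 0.71) for hairpin 2696, 2.38 (SE 0.34) for 2669, 1.89 (SE 0.52) for 2654 and 1.61 (SE 0.26) for 2642. The remaining hairpin, 2678, had 0.80 (SE 0.43) and was not called. Hairpin 2642 was thus the member nearest inside the fold limit and hairpin 2678 the one outside it. The median over the 5 was 1.89, while the median over all tested hairpins was -0.88. Relative to that general median the 5 hairpins lay 1.68 to 3.64 log2 units higher. Pomk hairpins ranked from 121st (hairpin 2696) to 597th (hairpin 2678) of the 2600 by fold change, where 223 were called enriched in all.

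The number of calls leaned on the scaling, on pairing by replicate letter and on single libraries. With plain total counts 1 Pomk hairpin (2669) was called, beside 4.77% of all tested hairpins. With the replicate letter as a block 0 were called, beside 2.54% of all tested hairpins enriched. The labels do not say whether the letters pair the libraries. Without 2i GFP+ replicate A or C 3 hairpins were called, hairpin 2654 being lost, beside 7.56% and 7.88% of all tested hairpins enriched. Without 2i GFP+ replicate B all 5 were called, where 16.0% of all tested hairpins were called enriched. Without any one of the 2i GFP- replicates A, B or C none was called, with log2 fold changes of the 4 hairpins between 1.55 and 3.10. In these fits 57 to 72 hairpins were called enriched in the whole table, 2.75% to 3.49% of those tested. The tested hairpins were also kept as in the full comparison, an alternative chosen after seeing the data. Then 2 Pomk hairpins were called without any one GFP- replicate, beside 4.96% to 5.31% of all tested hairpins enriched. Without GFP+ replicate B 4 were called, beside 15.4%, and without A or C 3, beside 7.42% and 7.88%.

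Hairpin 2669 reached the highest mean level of the 5 in GFP+ cells. Its level in the GFP+ libraries A, B and C was 1399, 2611 and 1806 CPM, and in the GFP- libraries 359.8, 382 and 433 CPM. In serum it measured 234, 533 and 476 CPM at day 0 and 484, 606 and 457 CPM at day 7. Every GFP+ library lay above every other library, also by total counts, and the 3 remaining groups overlapped except that GFP- lay below day 7. With TMM, 393 of 2906 tested hairpins lay wholly higher in GFP+ than at day 7, and 394 of 2670 than at day 0. In GFP-, 618 of 2981 lay wholly lower than at day 7. The mean was 1938 ± 617 CPM (SD, n = 3) in GFP+ against 391 ± 37.3 CPM (SD, n = 3) in GFP-, a ratio of 4.95, or 3.06 by total counts.

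Hairpin 2642 varied least of the 5 among the GFP+ libraries. It measured 1220, 1504 and 1403 CPM in the GFP+ libraries and 462, 418 and 529 CPM in the GFP- libraries. The serum libraries gave 399, 578 and 383 CPM at day 0 and 472, 455 and 459.9 CPM at day 7. The GFP+ libraries again lay above all others on both scales, and the other 3 groups overlapped. The mean was 1375 ± 144 CPM in GFP+ and 469.7 ± 56.0 CPM in GFP- (SD, n = 3 each), a ratio of 2.93, or 1.83 by total counts.

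Hairpin 2696 had the largest fold change and the widest spread of the 5. Its GFP+ libraries read 429.9, 1671 and 561 CPM, replicate B being far above A and C. The GFP- libraries read 129, 91.6 and 203 CPM. Serum libraries gave 261, 113 and 118 CPM at day 0 and 138, 153 and 101 CPM at day 7, so day 0 replicate A was the highest of the 9 libraries outside GFP+. Its coefficient of variation was 76.9% in GFP+, and without GFP+ replicate B its log2 fold change against GFP- was 1.85 in place of 2.75. Every GFP+ library lay above every other on the TMM scale, and by total counts the day 0 and GFP+ libraries overlapped.

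Hairpin 2654 differed from these 3 in that GFP- was low and GFP+ only moderately high. The GFP+ libraries read 296, 501 and 332 CPM and the GFP- libraries 102, 93.8 and 125 CPM. Serum lay between, with 208, 275 and 289 CPM at day 0 and 228, 151 and 242 CPM at day 7. On the TMM scale the GFP- libraries were below every serum library and the GFP+ libraries above every one. With TMM, 618 of 2981 tested hairpins lay wholly lower in GFP- than at day 7, and 575 of 2923 than at day 0. By total counts these numbers were 668 and 683, so such separation was not rare. By total counts GFP- stayed below all serum libraries, while GFP+ (253 ± 55.2 CPM, SD, n = 3) overlapped both day 7 (232 ± 55.8) and day 0 (309 ± 51.5).

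Hairpin 2678 was the member that did not separate the sorted groups. It read 939.9, 472 and 692 CPM in GFP+ and 360.4, 569 and 312 CPM in GFP-, so that GFP+ replicate B fell below GFP- replicate B. In serum it read 279, 653 and 381 CPM at day 0 and 588, 458 and 462 CPM at day 7, and all 4 groups overlapped their neighbours in level. On the TMM scale replicate B of GFP+ was the lowest of that group for hairpin 2678 and the highest for 2696, 2669, 2654 and 2642. By total counts its GFP+ and GFP- means were 484 and 451 CPM, a ratio of 1.07.

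Counting non-overlap alone, 4 Pomk hairpins had every GFP+ library above every GFP- library on both scales. This held for 13.6% of all tested hairpins with TMM and 8.23% with total counts. The contrast is again the one used to choose the gene. Against serum, 4 Pomk hairpins lay wholly higher in GFP+ with TMM, beside 393 of 2906 tested hairpins (day 7) and 394 of 2670 (day 0). By total counts 3 did against day 7 and 2 against day 0, beside 243 of 2906 and 240 of 2670. These comparisons share the GFP+ libraries that chose the gene, so nothing is read from the counts.

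Summed over its 5 hairpins, Pomk took 0.305%, 0.426% and 0.337% of all counts in the GFP+ libraries A, B and C. In the GFP- libraries it took 0.154%, 0.17% and 0.174%. The serum libraries gave 0.167%, 0.26% and 0.197% at day 0 and 0.215%, 0.204% and 0.193% at day 7. As a share of the library total, each GFP+ library lay above every other library. The GFP+ mean was 2.15 times that of GFP-, 1.75 times that of day 7 and 1.71 times that of day 0. The GFP+ and GFP- libraries are those that chose Pomk, and shares of other genes were not computed, so nothing is read from these values. A share of counts also rises when other hairpins are lost, and their part in this difference was not tested.

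Growth in serum/LIF was the comparison independent of how Pomk was chosen, since it shares no library with the sorted cells. It asks whether Pomk hairpins were gained or lost over 7 days without 2i. None of the 5 was called in either direction, beside 3.43% of 3028 tested hairpins enriched and 4% depleted. The log2 fold changes from day 0 to day 7 were 0.32 (SE 0.30) for hairpin 2669, 0.20 (SE 0.30) for 2678, 0.03 (SE 0.20) for 2642, -0.31 (SE 0.27) for 2654 and -0.32 (SE 0.40) for 2696. Adjusted p ran from 0.515 to 0.938 in edgeR's quasi-likelihood test, 0 of 5 passed an unadjusted p of 0.05, and edgeR's exact test and DESeq2 also called 0. The day 0 and day 7 libraries overlapped for all 5 hairpins. Overlap was also the general case: of the 3028 tested hairpins, 615 lay wholly higher and 545 wholly lower at day 7 with TMM. Without day 0 replicate A the signs of hairpins 2642 (-0.06), 2678 (-0.04) and 2696 (0.18) turned, and without day 0 replicate C that of 2642 (-0.08), with none called. The summed Pomk share was 0.208% ± 0.047 at day 0 and 0.204% ± 0.011 at day 7 (SD, n = 3 each), with p = 0.9 in a two-sided exact permutation test, for which 3 against 3 libraries allow no p below 0.1. The standard errors leave room for modest changes, so equal growth is not shown.

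GFP- cells were then set against serum. These comparisons share the GFP- libraries with the contrast that chose the gene, so calls are given as a description and no p is printed. Against Serum/LIF day 7 0 of 5 Pomk hairpins were called by edgeR's quasi-likelihood test, its exact test or DESeq2. In the first of these, 4.16% of tested hairpins were enriched and 4.83% depleted. There 2 Pomk hairpins (2654 and 2669) passed an unadjusted p of 0.05. That count was not made over all tested hairpins, so nothing is read from it. Hairpin 2654 passed the adjusted threshold in the exact test, in DESeq2 and with total counts, and was kept from a call there by the fold limit alone. The log2 fold changes were -0.95 (SE 0.29) for hairpin 2654, -0.39 (SE 0.16) for 2669, -0.28 (SE 0.23) for 2678, 0.03 (SE 0.15) for 2642 and 0.12 (SE 0.36) for 2696. Against Serum/LIF day 0, hairpin 2654 was called depleted with -1.27 (SE 0.33), 1 of 5 beside 5.37% of tested hairpins depleted, and the other 4 lay between -0.21 and 0.05. That call was lost without day 0 replicate B or C and without any one of GFP- replicates A, B or C, with log2 fold changes of -1.41 to -1.19 over the fits that left out 1 library.

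GFP+ cells against serum likewise share the GFP+ libraries with the choosing contrast. Hairpins 2696, 2669 and 2642 were called enriched against day 7, with log2 fold changes of 2.86 (SE 0.65), 1.99 (SE 0.32) and 1.64 (SE 0.21), beside 9.81% of tested hairpins. The same 3 were called against day 0, with 2.46 (SE 0.75), 2.25 (SE 0.44) and 1.61 (SE 0.32), beside 10.2% of tested hairpins. Hairpins 2654 and 2678 were called in neither, with 0.93 (SE 0.45) and 0.54 (SE 0.34) against day 7 and 0.57 (SE 0.49) and 0.68 (SE 0.47) against day 0. The general medians were -1.42 and -1.23. With total counts 2 hairpins (2696 and 2669) were called against day 7 and 1 (2669) against day 0, beside 5.68% and 5.24% of all tested hairpins. Hairpin 2654 then read 0.12 and -0.30 and hairpin 2678 -0.22 and -0.13. None was called without any one of the day 7 replicates A, B or C in the first comparison or the day 0 replicates A, B or C in the second, with 4.27% to 4.79% and 4.38% to 5.21% of all tested hairpins called enriched. When the tested hairpins were kept 2 were called in each of these fits, beside 6.68% to 6.88% and 6.40% to 7.19%. With TMM the 3 hairpins were thus called in GFP+ against each of the other groups, and with total counts hairpin 2669 was. These comparisons all use the same GFP+ libraries, so they do not support one another. With relative log expression (RLE) scaling hairpin 2696 was not called against day 0, which left 2 calls.

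Among themselves, the Pomk hairpins moved together mostly through the GFP+ libraries. Over all 12 libraries the correlation of log2(CPM + 1) was highest for 2642 and 2669 (r = 0.95) and lowest for 2678 and 2696 (r = 0.18). Without the 3 GFP+ libraries the same pairs had r = 0.44 and r = -0.74 over 9 libraries, and the 10 pairs ranged from -0.74 to 0.62. The points share libraries and their scaling, and the values are a description.

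Genes near Pomk in the count of enriched hairpins in GFP+ over GFP- cells show what lies just outside the choice. Of 200 genes with 5 tested hairpins, 118 had none enriched, 67 had 1, 9 had 2, 5 had 3, 1 (Pomk) had 4 and 0 had 5. By total counts no gene of the 200 had more than 2, a number reached by 6 genes and not by Pomk. The 5 genes with 3 of 5 were Ippk, the kinase that makes inositol hexakisphosphate, Itpka, an inositol trisphosphate kinase, Kcnh2, a potassium channel subunit, Pik3cb, a catalytic subunit of phosphatidylinositol 3-kinase, and Tlk1, a kinase of histone chaperones. Each of these 5 also had 1 depleted hairpin, while Pomk had none, as did 60 of the 200 genes, Ephb4 and Havcr2 among them. Nme3, a nucleoside diphosphate kinase, had 3 of 4 enriched and Npr2, the receptor of C-type natriuretic peptide, 3 of 8, neither with a depleted hairpin. Of the 200 genes, 3 had all 5 log2 fold changes above 0, namely Pomk, Ephb4 and Adpgk, the last being an ADP-dependent glucokinase and named after its values were seen. By total counts 2 did, Pomk and Ephb4. For Pomk these are the values that chose it, so the signs of the 4 called hairpins were set by the choice. Only hairpin 2678 was free, with 0.80, or 0.10 by total counts. Nothing is read from its signs or from its lack of a depleted hairpin.

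The genes whose pattern over the 12 libraries was most like that of Pomk were found by Pearson correlation of the mean centred log2(CPM + 1) over each gene's hairpins, among 606 other genes with 4 or more hairpins. They were Tlk1 (r = 0.94), Ephb4, an Eph receptor of ephrin-B2 (r = 0.90), Sephs2, a selenophosphate synthetase (r = 0.85), Havcr2, an immune checkpoint receptor (r = 0.84), and Blk, a SRC family kinase of B cells (r = 0.80). Ephb4 had 2 of 5 hairpins enriched in GFP+ over GFP- cells and a median log2 fold change of 1.25, while Havcr2 had 0 of 5 and a median of 0.87. The likeness rested on the GFP+ libraries. Without them the 5 correlations ranged from -0.75 (Blk) to 0.53 (Havcr2), and none of the 5 stayed among the nearest 5. Without GFP+ replicate B alone 2 stayed.

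The direct partners of Pomk could not be followed in this library. Of 18 genes of the alpha-dystroglycan O-mannosyl glycan pathway and 12 other kinases of the secretory pathway, 0 had a hairpin in the table. The nearest classes present were kinases of free sugars and amino sugars, with 9 of 12 genes and 35 hairpins, and kinases of cell-matrix adhesion, with 11 of 11 genes and 46 hairpins.

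Among the sugar kinases, in GFP+ against GFP- cells 2 of 26 tested hairpins were enriched and 5 depleted, beside 8.58% and 23.5% of all tested hairpins, and their median log2 fold change was -0.78 against -0.88 over all. Galactokinase hairpins were called both ways on the TMM scale, while by total counts hairpins 1668 (1.49) and 1702 (0.58) were not called and the list had 0 enriched and 5 depleted. Galk1, the galactokinase that opens the galactose pathway, had hairpin 1668 enriched at 2.17 (SE 0.62, adjusted p = 0.0402 by edgeR) and hairpin 1667 depleted at -1.51 (SE 0.28, adjusted p = 0.0086). Galk2, which phosphorylates N-acetylgalactosamine, had hairpin 1702 enriched at 1.28 (SE 0.28, adjusted p = 0.0143 by edgeR). Its hairpin 1701 had 0 counts in all GFP+ libraries and 408 in the GFP- libraries. In PCR reads that was at least 105-fold lower against a floor of 3 counts over the group. Only 40.2% of all hairpins had a count in each GFP+ library. Glyctk, glycerate kinase, had hairpins 3011 and 3009 depleted at -1.66 and -1.88. From day 0 to day 7 in serum 0 of 29 were enriched and 1 depleted, beside 3.43% and 4% of all tested hairpins. The 1 was a hairpin of the ribokinase gene Rbks with -1.96 (SE 0.50, adjusted p = 0.0383 by edgeR).

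The adhesion kinases are matrix receptors themselves (Ddr1 and Ddr2) or act downstream of such receptors. In GFP+ against GFP- cells 1 of their 36 tested hairpins was enriched and 9 were depleted (12 by total counts), beside 8.58% and 23.5% of all tested hairpins (27.7% depleted by total counts). The median log2 fold change was -1.38 against -0.88 over all. The enriched one was hairpin 1053 to Src, a tyrosine kinase of focal adhesions, at 1.98 (SE 0.19, adjusted p = 0.0037 by edgeR). Its level was 4044 ± 654 CPM in GFP+ and 1062 ± 89.1 CPM in GFP- (SD, n = 3 each). Among the depleted ones, hairpins 1173 and 1174 to Csk, which inhibits SRC family kinases, had 0 counts in all GFP+ libraries. So did hairpins to Rock2 and Rock1, kinases of actomyosin contraction. Against the floor of 3 counts they were at least 69.3-fold (Rock1) to 569-fold (Csk) lower than in GFP-, in PCR reads and not cells. Only 40.2% of all hairpins had a count in each GFP+ library, and how many had 0 in all of them was not counted. In serum from day 0 to day 7 0 of 43 were enriched and 1 depleted, beside 3.43% and 4% of all tested hairpins. The 1 was hairpin 1175 to Csk with -4.41 (SE 1.17, adjusted p = 0.0423 by edgeR). No test of the difference between Pomk and these lists was made.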

How the data were processed

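The deposited table holds raw counts per hairpin for 12 libraries. Per the labels, hairpins were amplified from genomic DNA by PCR, and reads were aligned by the authors with Bowtie2 at standard settings and tallied by a script. The submitters' processing notes also name edgeR. No versions are given in the sources that were used here. Of the 3243 hairpins, with 732 symbols, 2941 matched RefSeq mouse gene names (GRCm38.p6, used for names only) by symbol and 283 by synonym.

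Each pair of groups was fitted alone in edgeR 4.0.16 (R 4.3.3) with TMM scaling, on hairpins that reached 0.5 CPM in 3 or more libraries, by the quasi-likelihood test with Benjamini-Hochberg adjustment over all tested hairpins. A call took an adjusted p below 0.05 with a change of over 1 log2 unit either way. Levels for display used TMM factors over all 12 libraries. The fitting was tested on simulated counts.

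Alternatives were DESeq2 1.42.0 size factors (RLE) and its test, total counts, other filters, edgeR's exact test, all groups in 1 fit, the replicate letter as a block, no fold limit, and leaving out each library. Named hairpins were all of Pomk, up to 4 called per list and direction by smallest p, genes with 3 or more enriched hairpins, and the 5 genes most like Pomk. The members, lists and rules were chosen with earlier results of these data known.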

Additional observations from a re-analysis of the deposited data

How the results depend on the processing

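The Pomk calls moved with scaling, pairing and single libraries. In GFP+ against GFP- cells, where 4 hairpins were called, total count scaling left 1 and the replicate block 0, and leaving out 1 library gave 0 to 5 (2 to 4 with the tested hairpins kept). With total counts the enriched share of all calls there fell from 26.8% to 14.7% and the median log2 fold change of all hairpins from -0.88 to -1.61. Against day 0, where GFP+ cells had 3 calls, RLE scaling left 2, total counts left 1, the replicate block 1 and leaving out 1 library 0 to 3. Against day 7, also with 3, the replicate block left 0 and leaving out 1 library 0 to 3. The 1 call of GFP- cells against day 0 became 0 with all 4 groups in 1 fit and with the replicate block, and 0 to 1 without 1 library. The labels do not say whether the letters pair the libraries. Correlations of same-letter deviations lay between -0.07 and 0.03 in the 6 comparisons. These values show no shared deviation but cannot tell whether the letters pair cultures by design. The paired fit was an alternative and not the main fit. The paired fit lowered the calls in the whole table, for instance from 223 to 66 enriched and from 610 to 1 depleted in GFP+ against GFP- cells. In day 7 against day 0, with no call under any alternative, hairpin 2642 turned from 0.03 to -0.0065 (RLE), -0.076 (total counts) and -0.0066 (DESeq2). Leaving out 1 library gave -0.080 to 0.25 for hairpin 2642, -0.52 to 0.18 for 2696 and -0.043 to 0.62 for 2678. Of the 5 genes most like Pomk, 2 stayed with Spearman's correlation and 0 with summed CPM. The cause of these shifts was not tested. Where fewer libraries were compared, fewer hairpins were tested (2062 to 2073 without a GFP- library). The lowest Pomk count was 331, but reads are not independent cells, and each group held 3 libraries.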
